A study of Mus musculus with 18 samples.

Results

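The TOX factors are a family of 4 mouse genes, *Tox*, *Tox2*, *Tox3* and *Tox4*, whose proteins share a DNA-binding HMG box. The members were found by gene symbol in the annotation and by its identifier in the deposited tables, where all 4 are listed among 45706 genes. *Tox* is *ENSMUSG00000041272* (GRCm38, chr4:6686353-6991557, minus strand), *Tox2* is *ENSMUSG00000074607* (chr2:163203125-163324170, plus strand), *Tox3* is *ENSMUSG00000043668* (chr8:90247040-90348343, minus strand) and *Tox4* is *ENSMUSG00000016831* (chr14:52279146-52296401, plus strand), and all are annotated as protein-coding genes.

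TOX is a chromatin-associated factor needed for the development of CD4+ T cells in the thymus and for the survival and identity of exhausted CD8+ T cells. In mature T cells its transcription follows calcium, calcineurin and NFAT signaling from the T cell receptor, and it acts beside NR4A receptors on genes of inhibitory receptors. TOX2 is related to it in sequence and is known from follicular helper T cells and from exhausted T cells, TOX3 from neurons and breast epithelium, and TOX4 is a broadly expressed nuclear protein held in a phosphatase complex with PNUTS and WDR82.

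The samples were purified CD8+ T cells of OT-I mice, whose T cell receptor recognizes an ovalbumin peptide, and cultured with IL-15 and IL-7. Repeat peptide stimulated cells received 10 ng/ml peptide on each of the first 5 days, and single peptide stimulated cells met it once and were then washed and kept without it. From day 5 the cells had 1 µM ibrutinib, a covalent inhibitor of BTK and of other kinases, or its solvent DMSO, and were lysed on day 8. By the study's methods, repeat peptide cells still had peptide in the medium during this treatment, from day 5 to day 8. This gave 4 libraries of repeat peptide with DMSO, 5 of repeat peptide with ibrutinib, 5 of single peptide with DMSO and 4 of single peptide with ibrutinib. The genotype field of the labels differs between cultures and was read as the name of an experiment, lettered A to F here: A to D have a library in each group, E only one of repeat peptide with ibrutinib and F only one of single peptide with DMSO. That field names a *btk* knockout for B to E, whereas the strain field gives wild type OT-1 mice for all 18 libraries and the RNA-seq experiment is described without *btk* deficient cells. The labels do not state whether cultures came from separate mice, so p-values measure the spread between cultures. In bulk samples, fewer cells that express a gene and less RNA per cell cannot be told apart. Libraries held 23445922 to 51995372 expected counts. The summed TPM of 7 CD8+ T cell markers was between 2989 and 4127 in all libraries, and of 4 CD4+ and regulatory T cell markers *Cd4* reached at most 0.17 TPM, *Cd40lg* 1.53, *Foxp3* 8.49 and *Zbtb7b* 20.7.

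The start sites of *Tox2*, *Tox3* and *Tox4* are shown beside their levels, which are at or near 0 for *Tox2* and *Tox3* and steady for *Tox4*. These are the 250 bases before and 50 after the annotated start, from RefSeq on GRCm38.p6, 5′ to 3′ on the gene's strand, with each CpG in capitals. Of *Tox2*, which has 5 start sites in that table, the first is shown. *Tox* has no entry.
Tox2 (chr2:163202877-163203176, plus strand): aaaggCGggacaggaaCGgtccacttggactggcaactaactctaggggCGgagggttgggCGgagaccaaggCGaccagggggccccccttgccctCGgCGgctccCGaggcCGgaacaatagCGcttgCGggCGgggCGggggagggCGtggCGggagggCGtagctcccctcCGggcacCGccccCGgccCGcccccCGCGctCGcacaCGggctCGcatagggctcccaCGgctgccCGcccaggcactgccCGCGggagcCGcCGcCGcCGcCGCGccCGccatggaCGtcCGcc
Tox3 (chr8:90348203-90348502, minus strand): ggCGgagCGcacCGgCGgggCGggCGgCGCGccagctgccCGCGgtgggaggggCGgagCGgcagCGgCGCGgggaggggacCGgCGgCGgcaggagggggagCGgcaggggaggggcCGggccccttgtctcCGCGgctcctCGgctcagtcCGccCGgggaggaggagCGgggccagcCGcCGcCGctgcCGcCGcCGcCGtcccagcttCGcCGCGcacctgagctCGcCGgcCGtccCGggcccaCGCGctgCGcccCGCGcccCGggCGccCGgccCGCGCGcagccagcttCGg
Tox4 (chr14:52278896-52279195, plus strand): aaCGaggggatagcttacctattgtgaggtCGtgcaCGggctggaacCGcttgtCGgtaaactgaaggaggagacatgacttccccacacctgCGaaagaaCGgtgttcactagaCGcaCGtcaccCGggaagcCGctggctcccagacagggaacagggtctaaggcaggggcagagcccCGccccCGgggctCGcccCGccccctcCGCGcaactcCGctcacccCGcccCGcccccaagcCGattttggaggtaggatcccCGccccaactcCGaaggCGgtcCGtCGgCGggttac
The *Tox3* window had 52 CpG and a GC content of 85.3%, and 99.4% of the 32851 promoter windows in the table had fewer CpG. The *Tox2* window had 38 CpG and 77.0% GC, and the *Tox4* window had 27, with fewer in 84.5% of windows. The median window had 7 CpG and 52.7% GC. GGGCGG, counted on both strands, matched 7 times in *Tox2*, 4 times in *Tox3* and 5 times in *Tox4*, and 35.7% of all windows held it at least once. TATAAA (in 13.6% of windows), CCAAT (37.4%), TGANTCA (7.81%) and GGAAA (61.3%) had no match on either strand in these 3 windows. The other 4 *Tox2* start sites had 39, 23, 7 and 8 CpG, so they ran from dense to about the median. The third of the 5 *Tox2* sites had 4 matches of CCAAT, and the fourth and the fifth had 1 of TATAAA, 2 of CCAAT and 1 of GGAAA each. A match is a run of letters, and no match concerns only these letters in this window.

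*Tox4* was the most abundant member per length and *Tox* the other detected one, while *Tox2* and *Tox3* were at or near zero. In TPM, a level corrected for gene length and scaled to the same total in every library, *Tox* in repeat peptide cells with DMSO was 24.0, 19.7, 19.5 and 13.7 in experiments A, B, C and D. With ibrutinib it was 11.7, 11.9, 14.2, 8.74 and 7.65 in A to E. Single peptide cells had 3.12, 3.47, 2.56, 2.19 and 3.04 with DMSO (A to D and F) and 1.49, 2.40, 1.87 and 1.31 with ibrutinib (A to D). Every repeat peptide library lay above every single peptide library. The ranges of the 2 repeat peptide groups overlapped, since C with ibrutinib was above D with DMSO, and those of the 2 single peptide groups also overlapped on this scale. Group means were 19.2 ± 4.2, 10.8 ± 2.6, 2.88 ± 0.50 and 1.77 ± 0.48 TPM (SD, n = 4, 5, 5 and 4).

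*Tox4* showed none of this order. It was 31.5, 27.3, 33.7 and 31.1 TPM in repeat peptide cells with DMSO (A to D) and 30.6, 32.7, 31.2, 26.8 and 20.3 with ibrutinib (A to E). Single peptide cells had 35.2, 29.1, 28.4, 23.9 and 28.6 TPM with DMSO (A to D and F) and 31.2, 30.2, 24.1 and 23.7 with ibrutinib (A to D). All 4 groups overlapped, with means of 30.9 ± 2.6, 28.3 ± 5.0, 29.0 ± 4.1 and 27.3 ± 4.0 TPM (SD, same n), and the lowest library was E. In the normalized counts described below, E was at 3562 for *Tox4*, inside its group's range of 3437 to 4053. For *Tox*, E was also the lowest of its group in TPM (7.65) but not in normalized counts (981.9). *Tox4* was above *Tox* in 18 of 18 libraries. The ratio of *Tox* to *Tox4* TPM was 0.625 ± 0.146 in repeat peptide cells with DMSO and 0.381 ± 0.047 with ibrutinib, against 0.0992 ± 0.0133 and 0.0651 ± 0.0160 in single peptide cells.

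*Tox2* had 1 expected count in repeat peptide with DMSO D, 1 in repeat peptide with ibrutinib C and 0 in the other 16 libraries. *Tox3* had 0 in all 18. A count of 0 allows up to 3 counts, which is 0.0505 to 0.134 TPM for *Tox2* over its 16 libraries at 0 and 0.0446 to 0.119 TPM for *Tox3*, depending on the library. These limits cover counting error only. Neither gene passed the filter on low counts, no fold change was computed for them, and a difference between groups was not detectable at this depth.

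**Figure D1:**
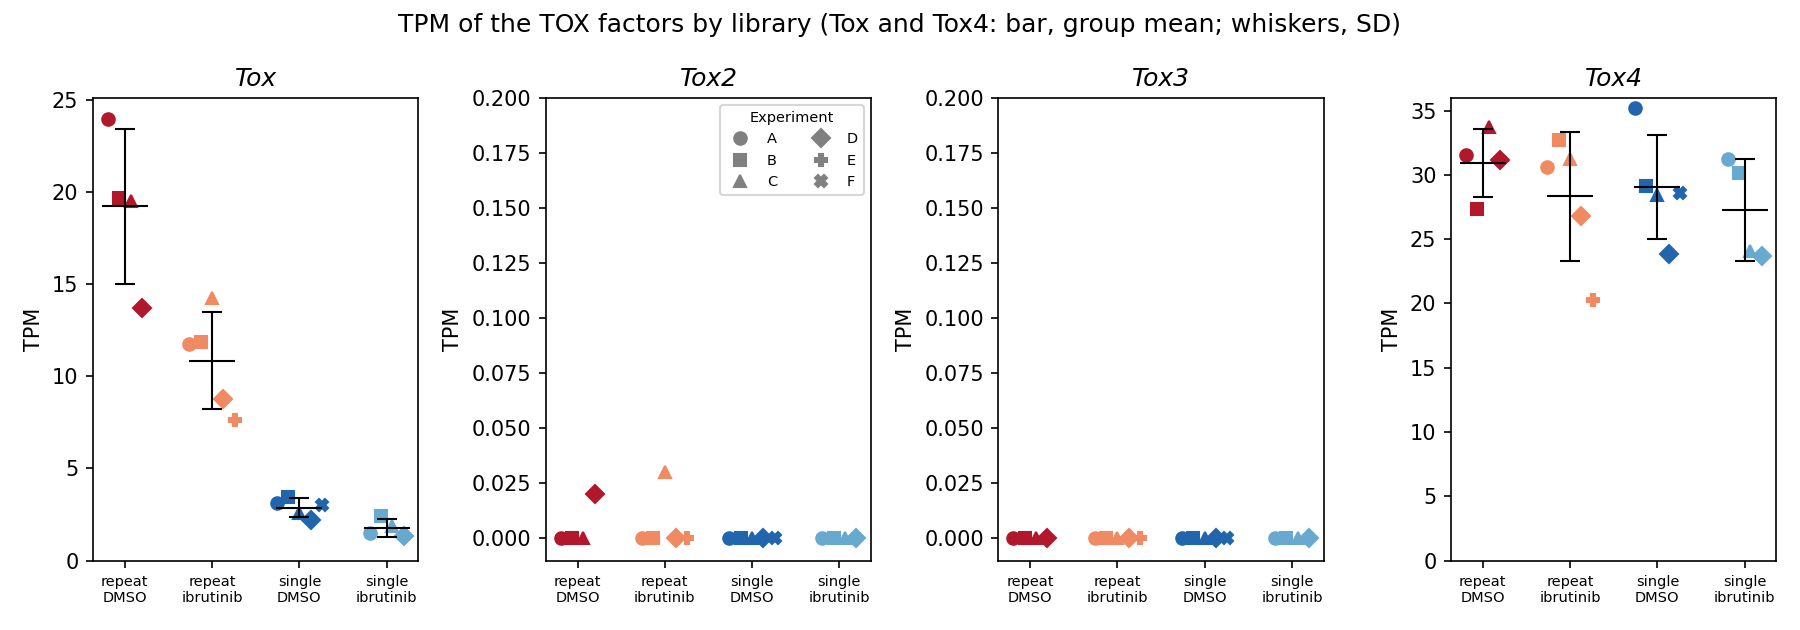
TPM of the 4 members (vertical axes, each with its own scale) in the 4 groups (horizontal axes), 1 point per library and 1 symbol per experiment. Mean *Tox* is 19.2 in repeat peptide cells with DMSO, 10.8 with ibrutinib, and 2.88 and 1.77 in single peptide cells, *Tox4* stays between 20.3 and 35.2 in every library, and *Tox2* and *Tox3* lie at or near 0.

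The comparison of repeat with single peptide cells asked how the members differ between cells kept with antigen and cells that met it once. *Tox* was 5.96-fold higher in repeat peptide cells with DMSO. The normalized counts, scaled for library size and composition, were 1901, 1877, 1697 and 1232 in repeat peptide cells with DMSO (A to D) and 270.2, 325.6, 272.7, 253.6 and 283.7 in single peptide cells with DMSO (A to D and F). The groups did not overlap, and within experiments A to D the log2 ratio was 2.81, 2.53, 2.64 and 2.28. The fitted log2 fold change was 2.58 (SE 0.18, 95% interval 2.20 to 2.95, adjusted p = 2.77e-09, edgeR's quasi-likelihood test). A call needed an adjusted p under 0.05, 50 or more normalized counts on average, and a log2 fold change beyond 0.2 in size. By this rule 22.8% of 12255 tested genes were higher and 24.2% lower, so that a call on its own is common here. The fold change of *Tox* was larger in size than that of 93.0% of tested genes and ranked 254 among the 2799 higher genes.

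With ibrutinib in both cultures the difference was of similar size. Normalized counts of *Tox* were 952.1, 939.6, 1344, 860.7 and 981.9 in repeat peptide cells with ibrutinib (A to E) and 138.4, 217.3, 235.5 and 139.7 in single peptide cells with ibrutinib (A to D). Again no library of one group reached the other. The log2 fold change was 2.47 (SE 0.19, interval 2.08 to 2.87, adjusted p = 1.91e-08, edgeR), where 18.7% of genes were called higher and 19.6% lower. Repeat peptide cells with ibrutinib also stood above single peptide cells with DMSO, at 1.85 (SE 0.17, interval 1.50 to 2.21, adjusted p = 2.46e-07, edgeR), with 16.7% of genes higher and 16.2% lower. These comparisons share libraries with each other and with the first one, so they are not independent of it.

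*Tox4* was not called in any of these. Normalized counts ran from 3432 to 3995 in repeat peptide cells with DMSO, from 3437 to 4053 with ibrutinib. Those of single peptide cells ran from 3530 to 4133 with DMSO and from 3711 to 4117 with ibrutinib. The log2 fold change of repeat against single peptide was -0.01 with DMSO (SE 0.08, interval -0.18 to 0.15, adjusted p = 0.886, edgeR) and -0.10 with ibrutinib (SE 0.08, interval -0.26 to 0.06, adjusted p = 0.300). Both turned positive, at 0.09 and 0.04, on the log2(TPM + 1) scale, again with no call. As ratios the intervals ran from 0.885 to 1.11 with DMSO and from 0.832 to 1.04 with ibrutinib. Within experiments A to D, *Tox4* was lower in repeat than in single peptide cells with ibrutinib in 4 of 4, by log2 ratios of -0.20, -0.12, -0.02 and -0.05.

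Markers of other cells also moved with stimulation. The summed TPM of 4 CD4+ T cell markers was 16.5 to 21.4 in repeat peptide cells with DMSO, 5.38 to 16.6 with ibrutinib, and 2.08 to 11.2 and 2.73 to 12.5 in single peptide cells with DMSO and ibrutinib. *Zbtb7b* made up most of it in repeat peptide cells, and *Cd4* was at or near 0. *Foxp3* went the other way, with group means of 0.038, 0.40, 1.79 and 2.79 TPM in the same order. Of 5 dendritic cell markers the sum was 10.7 to 38.7, 6.79 to 22.5, 1.61 to 2.07 and 0.57 to 1.62 TPM in the same order, mostly *H2-Ab1* in repeat peptide cells, with *Flt3* at 0.11 TPM or less, *H2-Aa* at 1.40 or less, *Zbtb46* at 2.31 or less and *Itgax* at 4.08 or less. The sum of 3 NK cell markers was 5.47 to 16.1, 5.54 to 28.5, 1.00 to 2.74 and 1.42 to 3.06 TPM, that of 5 B cell markers 1.15 to 2.28, 1.06 to 4.12, 3.17 to 7.10 and 3.89 to 5.90, and that of 5 myeloid markers at most 6.23. Their part in the difference of *Tox* was not tested.

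Ibrutinib was compared with DMSO within each kind of stimulation to ask whether the drug changes the members. In repeat peptide cells *Tox* fell 1.65-fold. Its normalized counts, given above, had a mean of 1676 ± 310 with DMSO (SD, n = 4) and 1016 ± 189 with ibrutinib (n = 5), and the groups overlapped because C with ibrutinib (1344) was above D with DMSO (1232). Within experiments the log2 ratio was -0.997, -0.998, -0.34 and -0.52 in A, B, C and D, so it was lower in 4 of 4. The fitted log2 fold change was -0.72 (SE 0.17, interval -1.08 to -0.37, adjusted p = 0.0143, edgeR). Here 1.92% of genes were called lower and 4.01% higher, and *Tox* ranked 113 by size among 235 lower genes. With the experiment as a block, which pairs the libraries, *Tox* was at -0.71 (SE 0.14, adjusted p = 0.00235, edgeR). That fit called 1694 genes in either direction instead of 726. With each library left out in turn the adjusted p was 0.00496 to 0.0482, and without experiments E and F, a choice made after seeing the data, it was 0.0408. *Tox4* had a log2 fold change of -0.04 (SE 0.08, interval -0.21 to 0.12, adjusted p = 0.792).

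In single peptide cells the fitted difference of *Tox* was of like size but did not pass the adjusted threshold. Normalized counts had a mean of 281.2 ± 27.1 with DMSO (SD, n = 5) and 182.7 ± 51.0 with ibrutinib (n = 4), and the groups did not overlap. The log2 ratio within experiments was -0.96, -0.58, -0.21 and -0.86 in A, B, C and D, lower in 4 of 4. The log2 fold change was -0.62 (SE 0.18, interval -0.998 to -0.24, adjusted p = 0.0743, edgeR), in a comparison with 2.69% of genes called lower and 0.351% higher. With the block, which called 1114 genes instead of 373, *Tox* was called, at -0.64 (SE 0.15, adjusted p = 0.0111), and it was also called by DESeq2's Wald test at -0.64 (adjusted p = 0.0200) and without single peptide with ibrutinib C at -0.78 (adjusted p = 0.0335). For *Tox4* the log2 fold change was 0.04 (SE 0.08, interval -0.12 to 0.21, adjusted p = 0.885), and it was -0.09 on the log2(TPM + 1) scale.

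The passing of the threshold in one culture and not in the other does not show that the ibrutinib effects differ. The interaction, which is the log2 fold change in repeat minus that in single peptide cells, was -0.10 for *Tox* (SE 0.25, interval -0.62 to 0.42, adjusted p = 0.943, edgeR). It ran from -0.41 in experiment B to 0.34 in D. For *Tox4* it was -0.09 (SE 0.11, interval -0.32 to 0.14, adjusted p = 0.865). At this threshold 1.26% of all tested genes were called in either direction (154, and 679 with the block).

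**Figure D2:**
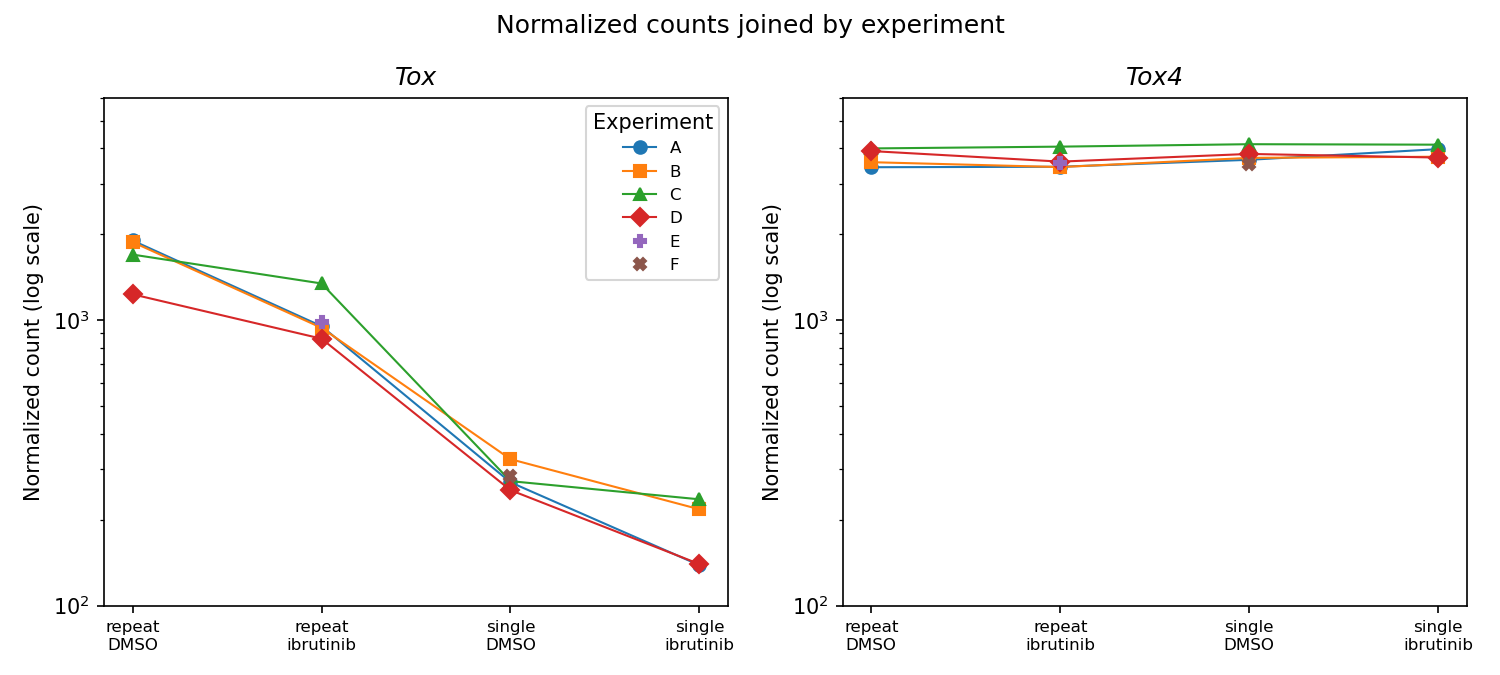
Normalized counts of *Tox* and *Tox4* (log scale) in the 4 groups, with libraries of the same experiment joined by a line. In experiments A to D every *Tox* line goes down from DMSO to ibrutinib in both cultures, with the smallest step in C, and the *Tox4* lines stay between 3432 and 4133.

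**Figure D3:**
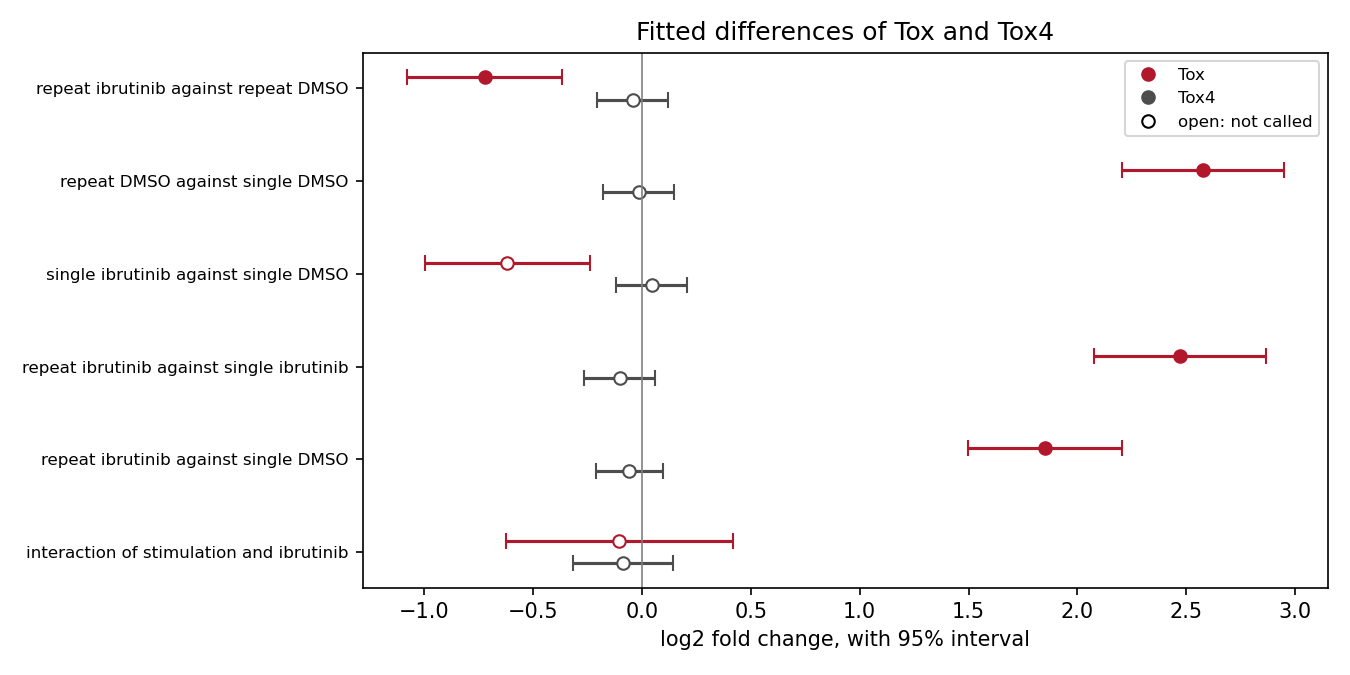
Fitted log2 fold change (horizontal axis) of *Tox* and *Tox4* with the 95% interval in the 6 comparisons, closed where called. *Tox* lies between 1.85 and 2.58 in the comparisons of repeat with single peptide cells and at -0.72 and -0.62 with ibrutinib, while all *Tox4* intervals include 0.

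RSEM gives each gene a length averaged over its transcripts by their estimated abundance, which serves as a readout of isoform use that the counts do not hold. *Tox* has a protein-coding transcript of 3961 bases in 9 exons and 3 transcripts without a coding role in the annotation, of 773, 1959 and 2614 bases. The *Tox* length was 3961 bases in 4 of 5 single peptide libraries with DMSO and in 3 of 4 with ibrutinib. In these libraries all *Tox* reads were thus given to the protein-coding transcript. The exceptions were both of experiment D, with 3875 and 3586 bases. Repeat peptide libraries lay between 3906 and 3960. *Tox4*, with a protein-coding transcript of 5350 bases in 10 exons, had lengths from 5116 to 5325 except in single peptide with DMSO A, which had 4665. None of 10 differences between groups passed a two-sided exact permutation test (adjusted p = 0.865 for each, smallest unadjusted p = 0.127 for *Tox4* in repeat against single peptide cells with DMSO). With 126 or 252 arrangements per test, a full separation in only 1 of the 10 could not have passed after adjustment. The absence of a call therefore does not show equal isoform use. The annotation places *Gm11802* on the strand opposite to *Tox*, at 0 TPM in every group, and *Rab2b* and *Mettl3* opposite to *Tox4*, at means of 5.82 to 6.67 and 28.9 to 39.7 TPM. The kit keeps the strand, but the strand setting of the counting is not given in the sources used here.

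Genes taken as upstream of *Tox* were described from a list of 13, all tested. It holds NFAT factors, calcineurin subunits, *Rcan1*, NR4A receptors, IRF4, BATF and EGR2. In repeat against single peptide cells with DMSO, 7 were higher and 2 lower, where 22.8% of all genes were higher and 24.2% lower, with a median log2 fold change of 0.30 beside -0.0022 over all tested genes. The lower count was 0 on the log2(TPM + 1) scale and 1 without repeat peptide with DMSO B or D or without single peptide with DMSO A. The largest rises were those of the nuclear receptors *Nr4a2* (4.27, SE 0.17), *Nr4a3* (3.63, SE 0.24) and *Nr4a1* (3.52, SE 0.33). *Irf4*, a factor induced in proportion to receptor signal, rose by 2.42, and *Nfatc1* by 0.60. *Nfatc2* and *Nfatc3* were lower, at -0.47 and -0.33, and *Batf* was not called (0.09, adjusted p = 0.724).

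With ibrutinib in repeat peptide cells 4 of the 13 fell and 0 rose (median -0.02 beside 0.0045 over all genes). Of all genes 1.92% fell and 4.01% rose. *Nr4a1* fell by 1.42 (SE 0.30), from 1624 ± 518 to 605.6 ± 204.6 normalized counts. *Nr4a3* fell by 1.32 (SE 0.22) and the log2 fold change of *Irf4*, also called, was -1.30 (SE 0.19), from 5193 ± 933 to 2103 ± 506. *Nfatc1* (-0.27, adjusted p = 0.216) and *Batf* (0.13, adjusted p = 0.739) were not called. In single peptide cells 4 again fell and 0 rose, with *Nr4a3* at -1.73, *Nr4a1* at -1.50 and *Nr4a2* at -1.14, and *Irf4* at -0.95 (median -0.13 beside 0.0099, with 2.69% of all genes lower). On the log2(TPM + 1) scale 1 fell instead of 4, and 2 fell without single peptide with ibrutinib A or D. With the block 1 upstream gene was called higher in repeat peptide cells.

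The 10 inhibitory receptors and ectoenzymes were all higher in repeat peptide cells with DMSO (median log2 fold change 3.54). Several are named for these samples by the study and so are no independent evidence of direction. In this comparison 22.8% of all tested genes were higher, and the median over all genes was -0.0022. Within the list the largest rises were in *Pdcd1*, encoding PD-1 (5.95), *Havcr2*, encoding TIM-3 (4.76), and *Lag3* (4.34). With ibrutinib in repeat peptide cells 4 of the 10 fell and 0 rose (median -0.72 beside 0.0045 over all genes). Of all genes 1.92% fell and 4.01% rose. The 4 that fell in the list were *Pdcd1* (-1.17, SE 0.17), *Tigit* (-1.07, SE 0.27), *Lag3* (-0.93, SE 0.20) and *Cd200*, which was not among the 3 largest. *Havcr2* (-1.35, adjusted p = 0.237), *Cd244a* (-0.50, adjusted p = 0.616) and *Cd160* (-0.14, adjusted p = 0.714) were not called. Single peptide cells had 3 that fell with ibrutinib, *Tigit* (-1.66), *Lag3* (-1.18) and *Cd160* (-0.77), where 2.69% of all genes fell and 0.351% rose. *Pdcd1* was at -0.26 (adjusted p = 0.633), and 1 of the 10 was higher without single peptide with DMSO B.

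Of 13 tested memory and effector genes, 7 fell and 2 rose in repeat peptide cells with DMSO (median -1.31). Of all genes 24.2% were lower and 22.8% higher. Without repeat peptide with DMSO B the list had 1 rise. The log2 fold change was -3.83 for *S1pr1*, needed to leave lymph nodes, -3.63 for *Eomes*, -2.98 for *Klf2* and -2.16 for *Tcf7*, encoding TCF1, while the granzyme gene *Gzmb* rose by 3.04 and *Id2* by 0.55. With ibrutinib in repeat peptide cells 6 rose and 1 fell (median 0.62), where 4.01% of all genes rose and 1.92% fell. *S1pr1* rose by 2.07 (SE 0.23), *Klf2* by 1.42 (SE 0.23) and *Tcf7* by 0.93 (SE 0.20), and *Gzmb* fell by 1.12 (SE 0.25). *Eomes* (1.37, adjusted p = 0.0743) and *Tbx21* (-0.09, adjusted p = 0.850) were not called. On the log2(TPM + 1) scale 2 of these genes rose instead of 6, and the fall of *Gzmb* was lost without repeat peptide with DMSO D. With ibrutinib in single peptide cells, where 0.351% of all genes rose and 2.69% fell, 1 of the 13 rose, *Il7r* (0.70), and 1 fell, *Gzmb* (-1.41). With the block there were 2 of each. The rise was lost on the log2(TPM + 1) scale and without single peptide with ibrutinib A, while 2 fell without single peptide with DMSO D or with ibrutinib B.

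**Figure D4:**
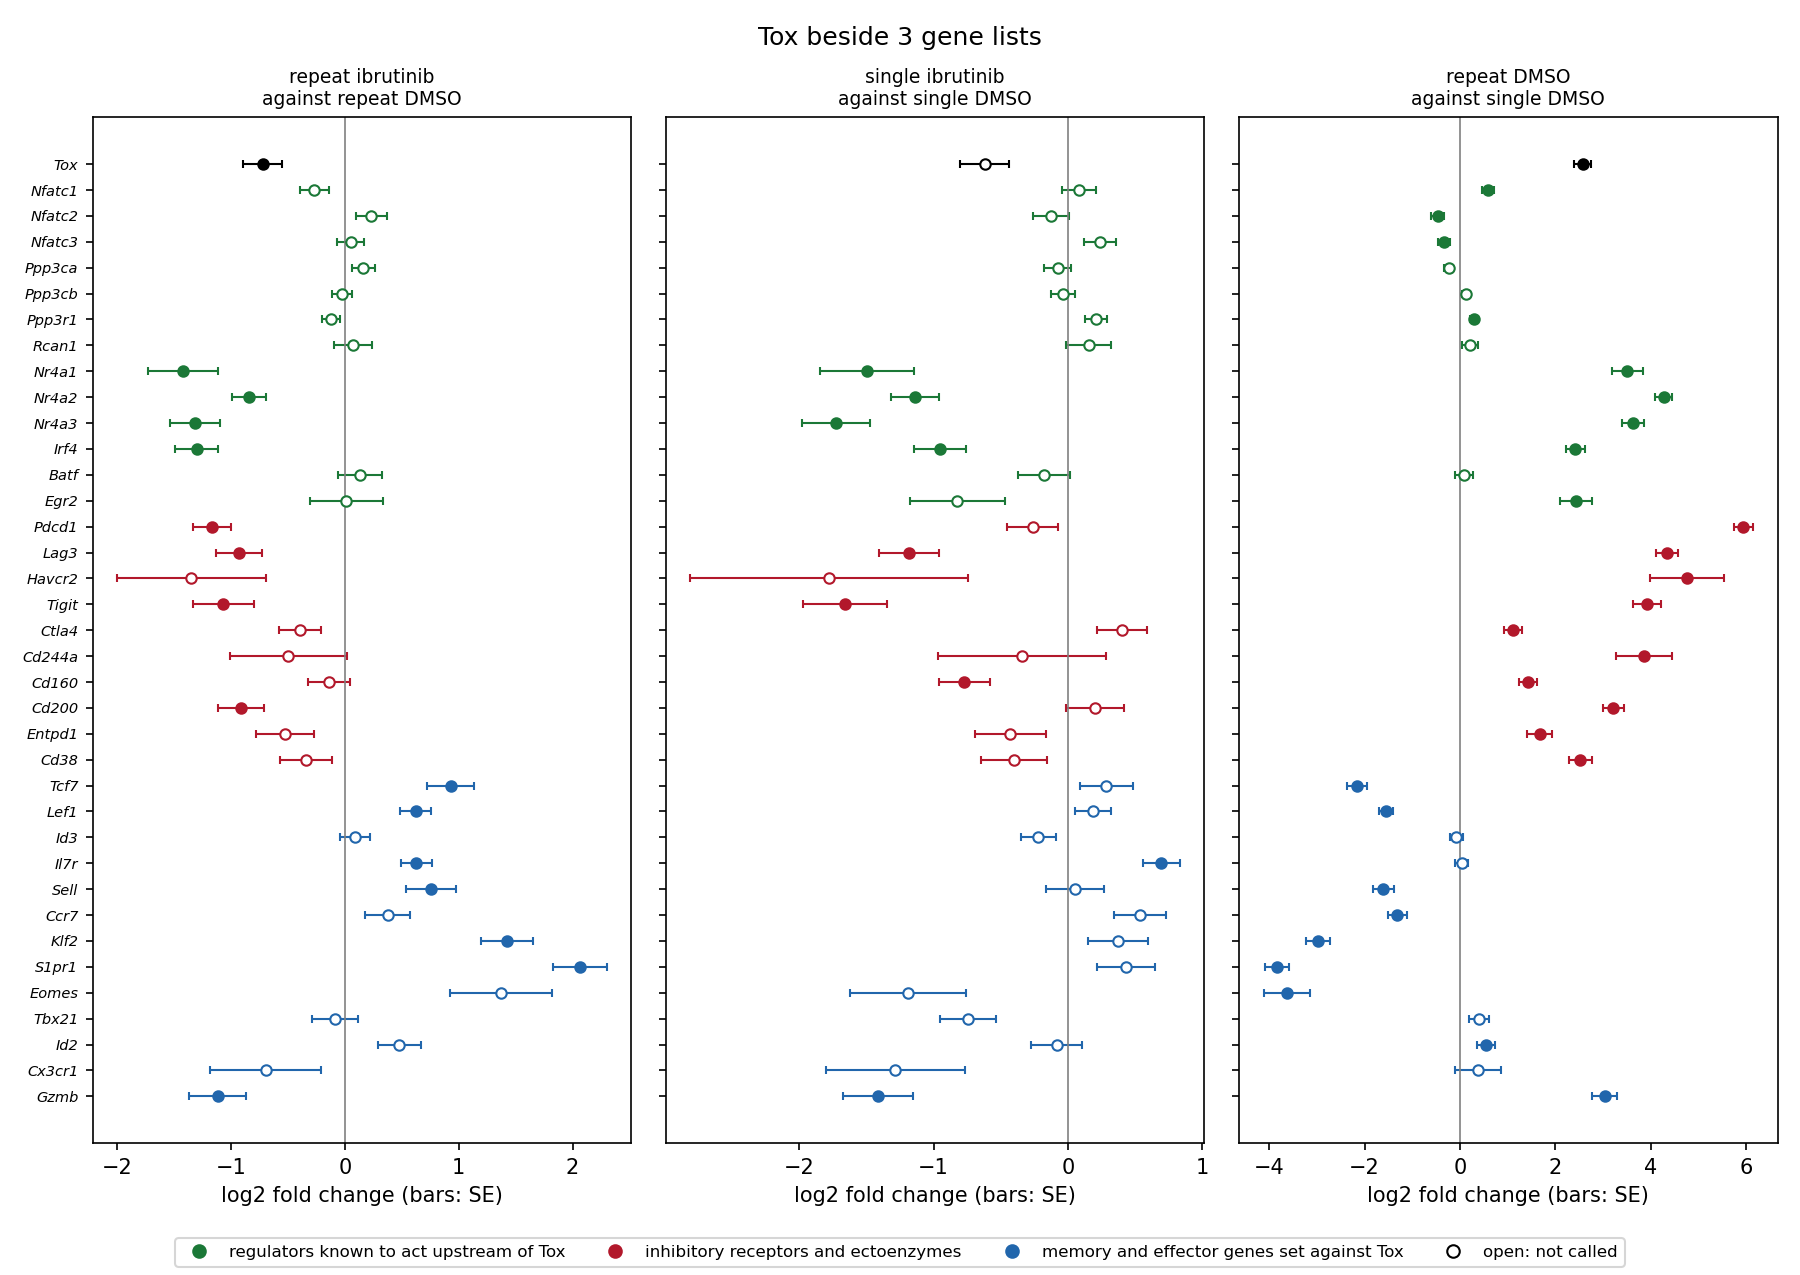
Fitted log2 fold change with its SE (horizontal axes) of *Tox* and of the members of 3 gene lists (rows) in 3 comparisons, closed where called. With ibrutinib *Tox*, 3 NR4A genes and *Irf4* have negative values in both cultures, and the inhibitory receptor genes are all positive in repeat against single peptide cells with DMSO.

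In the HBO1 acetyltransferase complex, which TOX is known to bind, 0 of 10 genes were called with ibrutinib in either culture, and 3 were lower in repeat peptide cells with DMSO (*Brpf3* at -0.89, *Jade2* at -0.33 and *Brd1* at -0.31), a share near the 24.2% of all genes. This count was 0 on the log2(TPM + 1) scale and 1 without repeat peptide with DMSO B, and with the block 1 gene was called higher in that comparison (1 also without experiments E and F) and 1 with ibrutinib in repeat peptide cells. The list's median was -0.17 with stimulation, -0.01 with ibrutinib in repeat and 0.06 in single peptide cells. Of all genes 4.01% rose and 1.92% fell with ibrutinib in repeat peptide cells. In single peptide cells 0.351% rose and 2.69% fell. The phosphatase complex that holds TOX4 has 5 listed genes. Its *Wdr82* was lower in repeat peptide cells with DMSO (-0.91, SE 0.10) and higher with ibrutinib in these cells (0.61, SE 0.10), the latter not on the log2(TPM + 1) scale, while *Ppp1ca* and *Ppp1cb* rose by 0.39 and 0.38 with stimulation and *Ppp1r10*, encoding PNUTS, was not called with stimulation or with ibrutinib in repeat peptide cells (-0.20, adjusted p = 0.443). With stimulation 22.8% of all genes rose and 24.2% fell. There the complex's count of rises was 1 with the length offset and without repeat peptide with DMSO B or single peptide with DMSO A or F. No gene of this complex was called with ibrutinib in single peptide cells, and the list's medians were 0.14, 0.0047 and 0.09 in the same order.

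Of 18 tested other HMG box genes, 5 were higher and 9 lower in repeat peptide cells with DMSO (median -0.22), beside 22.8% and 24.2% of all genes, and 3 were lower on the log2(TPM + 1) scale. *Hmgb3* (2.09), *Hmgb2* (1.29) and *Hmgb1* (0.78) had the largest rises and *Tcf7*, *Lef1* (-1.55) and *Sox4* (-1.02) the largest falls. With ibrutinib in repeat peptide cells *Tcf7* and *Lef1* (0.62) rose and *Hmgb3* fell (-0.71), where 4.01% of all genes rose and 1.92% fell. The list's median was 0.02, and 4 of its genes were higher with the block. Neither *Tcf7* nor *Lef1* was called on the log2(TPM + 1) scale, and 1 HMG box gene rose when just the 2 compared groups were fitted. The fall of *Hmgb3* was lost without a filter on low counts, with the length offset, without experiments E and F, and with 7 of 9 libraries left out (each but repeat peptide with ibrutinib C and D), and 2 genes fell on the log2(TPM + 1) scale. Single peptide cells had 1 that fell, *Hmgb3* (-0.89), where 2.69% of all genes fell and 0.351% rose. With the block 2 of the list were lower and 2 higher, and 3 were lower on the log2(TPM + 1) scale. The fall of *Hmgb3* was lost with only the compared groups and without single peptide with DMSO C or D or with ibrutinib A, B or D. Of 7 tested follicular helper genes, the setting in which *Tox2* is known, 2 rose (*Cd200* at 3.22, *Icos* at 1.47) and 3 fell (*Maf* at -3.94, *Cxcr5* at -3.71 and *Btla* at -0.76) in repeat peptide cells with DMSO (median -0.10), where 22.8% of all genes rose and 24.2% fell. With ibrutinib in repeat peptide cells *Cd200* (-0.91) and *Icos* (-0.55) fell (median 0.26), where 1.92% of all genes fell and 4.01% rose. With the block 1 follicular helper gene was higher. The falls of *Cd200* and *Icos* were both lost on the log2(TPM + 1) scale and 1 with the length offset. In single peptide cells 0 of the 7 were called (median 0.20), where 2.69% of all genes fell and 0.351% rose.

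The genes whose pattern was most like that of *Tox* were found by Pearson's r of log2 CPM over the 18 libraries, which share experiments and fall into groups set by stimulation. They were the inhibitory receptor gene *Lag3* (0.987), the nuclear receptor gene *Nr4a2* (0.985), *Fmnl3*, a formin (0.985), *St14*, a membrane serine protease (0.983), and *Bspry* (0.982). Their log2 fold changes in repeat against single peptide cells with DMSO were 2.30 to 4.34. After subtraction of each group's mean, which leaves the variation among cultures of a group, the closest genes were *Itih5* (0.831), *Nab1* (0.815), *Fam102b* (0.813), *Slc2a9* (0.798) and *Nfkbiz* (0.776), none of them among the first 5. For *Tox4* they were *Rpap3* (0.882), *Efl1* (0.828), *Gnl2* (0.821), *Eefsec* (0.813) and *Nsun2* (0.804), and within groups *Rpap3* (0.924), *Edem2* (0.898), *Gapdh* (0.893), *Sgta* (0.881) and *Mars* (0.876). *Tox* and *Tox4* themselves had r of -0.30 over all libraries and 0.11 within groups.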

How the data were processed

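The authors trimmed the reads and mapped them to GRCm38 with RSEM 1.3.1 and STAR, and deposited, per library, expected counts (estimated reads per gene, not whole), TPM (scaled by the authors to 1 total per library) and gene lengths in bases. Expected counts were rounded, limited to protein-coding and lncRNA genes by the annotation, and filtered on low counts by edgeR's filterByExpr (12255 tested). They were then normalized by TMM and compared with glmQLFTest (edgeR 4.0.16, R 4.3.3) in a single fit of the 4 groups. Alternatives used DESeq2 1.42.0 and limma 3.58.1. TPM was used only for levels, and for limma on log2(TPM + 1) of genes with at least 1 TPM in 4 libraries. Normalized counts are scaled to the mean effective library size. Lengths were compared by exact permutation with Python.

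The experiment pairs the libraries: all 24 pairs of libraries of an experiment in different groups deviated together (r 0.16 to 0.494, median 0.325; other 97 pairs, median -0.0765). The fits were made without this block, since the study's methods name none, and the block is an alternative.

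All members were named. From each list at most 3 called genes with the largest rise and 3 with the largest fall were named, plus genes that the study's RNA-seq text names and, by r, 5 genes of like pattern for each tested member. The members and lists were chosen with earlier results of these data known. Counts of all groups were simulated without an effect of the experiment (12092 genes). Of 200 genes changed by a log2 fold change of 1 in repeat peptide cells with ibrutinib, 84.5% were recovered, and 9 unchanged genes were called. Changes as small as those of *Tox* with ibrutinib were not simulated. Python tools read the promoter table from RefSeq, in which 3 of 4 members matched.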

Additional observations from a re-analysis of the deposited data

Results flagged for a closer look

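A library was set apart where its gap to the nearest library of its group was a large share of the group's range (above Dixon's 95% critical value), which chance gives in about 1 in 20 groups. There were 24 groups of values. In repeat peptide cells with ibrutinib, experiment C was above the others in *Tox* (1344 normalized counts, next 981.9) and in *Tox4* (4053, next 3591), a gap of 0.749 of the range for both. The *Tox* length was shorter in experiment D than in the other libraries of its group, which all had 3961 bases. It was 3875 bases in single peptide cells with DMSO and 3586 with ibrutinib, the latter from 136 expected counts. Since the longest *Tox* transcript has 3961 bases, any lone library below such ties is set apart, and the 1 in 20 does not apply. The *Tox4* length was 5135 bases in repeat peptide with ibrutinib B (next 5257) and 4665 in single peptide with DMSO A (next 5124). No cause was tested.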

How the results depend on the processing

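Alternatives were DESeq2's size factors, DESeq2's Wald test, no filter on low counts, an offset for effective length, all gene types, only the compared groups, the replicate block, limma on log2(TPM + 1), each library left out and, added after seeing the data, no libraries of experiments E and F. In all of these *Tox* was called in repeat peptide cells with ibrutinib (log2 fold change -0.84 to -0.65) and in the 3 comparisons of repeat with single peptide cells, and *Tox4* in none. In single peptide cells with ibrutinib, *Tox* was called at -0.64 (adjusted p = 0.0200) by the Wald test, at -0.64 (adjusted p = 0.0111) with the block and, of 9 libraries left out (-0.78 to -0.52), without single peptide with ibrutinib C. The adjusted p over all alternatives was 0.0111 to 0.332. The block changed no other call of a member. The *Tox* interaction ran from -0.23 to 0.063 with a library left out, positive only without single peptide with ibrutinib C. *Tox4* changed sign by log2(TPM + 1) in repeat against single peptide cells with DMSO (0.094) and with ibrutinib (0.044) and in single peptide cells with ibrutinib (-0.088), and ran from -0.049 to 0.023 with a library left out in the first of these.

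Counts of all called genes moved more. With ibrutinib in repeat peptide cells 726 were called, against 1165 by the Wald test, 1694 with the block, 332 by log2(TPM + 1), 464 with only the compared groups and 354 to 874 with a library left out. In single peptide cells 373 were called, against 612, 1114, 172, 181 and 131 to 391. For the interaction there were 154, against 350 by the Wald test, 679 with the block, 73 by log2(TPM + 1) and 84 to 171. By log2(TPM + 1), 2979 instead of 4703 were called in repeat against single peptide cells with ibrutinib and 2486 instead of 4028 in repeat peptide with ibrutinib against single peptide with DMSO. The cause was not tested. Of 1274 counts of list members, 1180 stayed within 1.5 times, where a count of 0 in both settings was taken as staying. Many of these counts were 0 or small, so this share is no measure of how firm the list results are.

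No length difference was called under any alternative, though with so few arrangements a full separation in only 1 comparison could not have been called. With a library left out the difference of *Tox* lengths in bases turned sign in repeat peptide cells with ibrutinib (-8.21 to 10.3), in repeat against single peptide with DMSO (-23.4 to 3.89) and with ibrutinib (-21.4 to 103.4), in single peptide cells with ibrutinib (-107.7 to 17.1) and in repeat peptide with ibrutinib against single peptide with DMSO (-21.4 to 4.02), and so did that of *Tox4* in repeat against single peptide with ibrutinib (-25.0 to 37.5). With a prior count of 0.5 the same 5 genes of like pattern were named for each member, over all libraries and within groups.

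Depth limits *Tox2* and *Tox3*, for which only a ceiling can be given. *Tox* and *Tox4* had at least 136 expected counts in every library. Each group has only 4 or 5 cultures.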
